A study of Mus musculus with 2 samples.

Results

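Neutrophils made up 69 of the 10667 cells deposited from droplet single-cell RNA sequencing of mouse hearts, 25 of 4867 in the AC8 library and 44 of 5800 in the WT library. The AC8 library came from pooled, untreated C57/B6 mice that overexpressed AC8, adenylyl cyclase 8, which turns ATP into the signalling molecule cyclic AMP. According to the series title the overexpression was specific to cardiomyocytes. The WT library came from pooled, untreated wild-type C57/B6 mice, which the study describes as littermates. Both cell suspensions were sorted with antibodies to CD45, a leukocyte antigen, and CD31, an endothelial antigen, into CD45+CD31-, CD45-CD31- and CD45-CD31+ cells, and equal numbers of each were mixed. The promoter of the transgene, the age of the mice and the number of mice in a pool are not given in the labels. Perfusion of the hearts is not described either, so neutrophils of the blood and of the tissue cannot be told apart.

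A cell was counted as a neutrophil when it carried at least 10 unique molecular identifiers (UMIs, each a tag of a captured transcript) of S100a8 and S100a9 together. No more than 10% of its UMIs could come from mitochondrially encoded genes, no more than 1 from the macrophage genes C1qa, C1qb and C1qc, and no more than 3 from the fibroblast genes Dcn, Col1a1 and Col3a1. The lymphocyte genes Cd79a, Cd79b and Cd3e and the endothelial genes Pecam1 and Cdh5 had to be at 0. All deposited cells had at least 500 UMIs. S100a8 and S100a9 chose the cells, so their levels below are a description and support nothing. Each genotype had 1 library, so no difference between AC8 and WT has a replicate check, and no test was made. All intervals are exact at 95%. They cover only the error of counting, and leave out how cells, mice and preparations differ.

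Neutrophils are short-lived granulocytes that leave the bone marrow as mature cells and enter tissue at sites of injury. They make the proteins of their granules in sequence as they mature, the azurophil granules first (Mpo, Elane), then the specific granules (Ltf, Camp, Ngp) and then the gelatinase granules (Mmp9). S100a8 and S100a9 encode the subunits of calprotectin, a very abundant protein of their cytosol. Mature neutrophils contain little RNA. In the heart they are known as the first leukocytes to arrive after infarction, where they release the cytokine interleukin-1 beta.

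Few cells lay near the minimum of 10 UMIs. At 5 to 9 UMIs of S100a8 and S100a9 there was 1 cell in AC8, with 693 UMIs, and 1 in WT, with 2085 UMIs, of which 4 were Csf3r. Just inside, at 10 to 19 UMIs, there was 0 in AC8 and 1 in WT. At 20 to 49 UMIs there were 12 AC8 and 4 WT cells, and at 50 or more 13 AC8 and 39 WT cells. Of all cells with at least 10 UMIs of the pair, 7 of 32 in AC8 and 14 of 58 in WT were left out by the other limits, where a cell could fail several limits. C1q genes left out 5 in AC8 and 10 in WT, endothelial genes 3 in AC8 and 1 in WT, fibroblast genes 1 in AC8 and 3 in WT, and the limits on lymphocyte and mitochondrial genes 0 in AC8 and 1 each in WT.

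The neutrophils were shallow. They held 24706 UMIs in AC8 and 34670 in WT, with a median of 817 per cell (532 to 3233) in AC8 and 700.5 (527 to 2774) in WT, and medians of 442 genes in AC8 and 370.5 in WT. Under 1000 UMIs lay 19 of 25 AC8 cells (76.0%, 54.9 to 90.6) and 40 of 44 WT cells (90.9%, 78.3 to 97.5). Over all deposited cells the medians were 1832 UMIs in AC8 and 1344 in WT, and 23.1% of AC8 and 35.5% of WT cells lay under 1000. Mitochondrial genes took a median of 0.528% of neutrophil UMIs in AC8 and 0.691% in WT. A gene with 0 UMIs may stand at up to 121 UMIs per 1000000 (CPM) in AC8 neutrophils and 86.5 CPM in WT neutrophils, the level of 3 UMIs summed over the cells of a library, a one-sided limit that lies below the upper end of a two-sided exact interval.

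The label was checked with 10 neutrophil genes that the rule did not use, and all 10 were higher in the neutrophils than in each of 5 other classes of cells, in both libraries. The classes were cells with the genes of monocytes, macrophages, B cells, fibroblasts or endothelial cells, likewise picked by UMI limits, and they serve only for comparison. Retnlg, resistin-like gamma, a secreted protein of the bone marrow and of neutrophils (chromosome 16, 48872621 to 48874496, plus strand, GRCm38), stood at 6112 CPM (5176 to 7168) in AC8 and 10412 CPM (9366 to 11544) in WT neutrophils. In the other classes it was at most 8.02 CPM in AC8 and 14.4 CPM in WT. Cells with a Retnlg UMI were 19 of 25 AC8 and 35 of 44 WT neutrophils. After thinning every cell to 500 UMIs the shares were 56.0% in AC8 and 72.7% in WT. In the macrophage class they were 0.00% in AC8 and 0.532% in WT, and unthinned 0.462% in AC8 and 1.24% in WT, at median depths of 2962 UMIs in AC8 and 1848.5 in WT.

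Csf3r, the receptor for granulocyte colony-stimulating factor (chromosome 4, 126024550 to 126044440, plus strand), had 1295 CPM in AC8 and 1413 CPM in WT neutrophils. G0s2, an inhibitor of the lipase ATGL (chromosome 1, 193272161 to 193273217, minus strand), had 4088 CPM in AC8 and 4096 CPM in WT, and fibroblasts came next with 434 CPM in AC8 and 394 CPM in WT. Cxcr2, the receptor for neutrophil-attracting chemokines, stood at 486 CPM (251 to 848) in AC8 and 635 CPM (398 to 961) in WT neutrophils and at no more than 2.36 CPM in AC8 and 2.53 CPM in WT in any other class. Il1r2, a decoy receptor for interleukin-1, had 1943 CPM in AC8 and 3086 CPM in WT, and Slpi, a protease inhibitor, had 5626 CPM in AC8 and 5826 CPM in WT. Ly6g, which encodes the surface antigen used to stain mouse neutrophils, was sparse, with 5 UMIs in each library. At this depth a marker could miss single cells: Retnlg was at 0 in 6 AC8 and 9 WT neutrophils, but Retnlg, Csf3r and G0s2 were all at 0 in 0 AC8 and 1 WT cells.

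Many defining genes of other leukocytes were at or near 0, while some genes of monocytes, macrophages and other lineages were found at low levels. Of the monocyte list, Ccr2, Ace, Treml4 and Cx3cr1 were at 0 in both libraries, Csf1r had 3 UMIs in AC8 and 0 in WT, and Ly6c2, a classical monocyte antigen, had 5 UMIs in each. Over all 13 genes of that list the cells held 0 to 23 UMIs in AC8, 48 in all, and 0 to 5 in WT, 34 in all. That was 1943 CPM in AC8, in 16 of 25 cells, and 981 CPM in WT, in 22 of 44 cells. The 8 NK cell genes and the 9 genes of mast cells, basophils and eosinophils, among them Siglecf, were all at 0. T cell genes had 0 UMIs in AC8 and 1 in WT, B cell genes 5 in AC8 and 4 in WT, erythroid genes 1 in AC8 and 2 in WT, and the 7 cell cycle genes in the matrix 2 in each. The rule itself set Cd3e of the T cell list and Cd79a and Cd79b of the B cell list to 0, so their absence supports nothing. It also held the macrophage genes C1qa, C1qb and C1qc to at most 1 UMI per cell, so low counts of them support nothing either. The 11 fibroblast genes, of which the rule allowed up to 3 UMIs of 3 genes, had 22 UMIs in 14 of 25 AC8 cells and 45 UMIs in 28 of 44 WT cells. That was 890 CPM in AC8 and 1298 CPM in WT, near the level of Csf3r, against 73858 CPM in AC8 and 66290 CPM in WT in the fibroblast class. The macrophage list had 24 UMIs (971 CPM) in AC8 and 22 (635 CPM) in WT. The dendritic cell list had 8 UMIs in AC8 and 15 in WT, and the platelet list 7 in AC8 and 2 in WT. Mural cell genes had 4 in AC8 and 8 in WT, and cardiomyocyte genes 11 in AC8, 54.5% of them in 1 cell, and 3 in WT. Their part in the results below was not tested. Lyz2, lysozyme, which neutrophils also express, was lower in the neutrophils than in the monocyte and macrophage classes of either library. The monocyte class was picked in part by at least 3 UMIs of Lyz2, so the comparison with that class supports nothing.

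**Figure D1:**
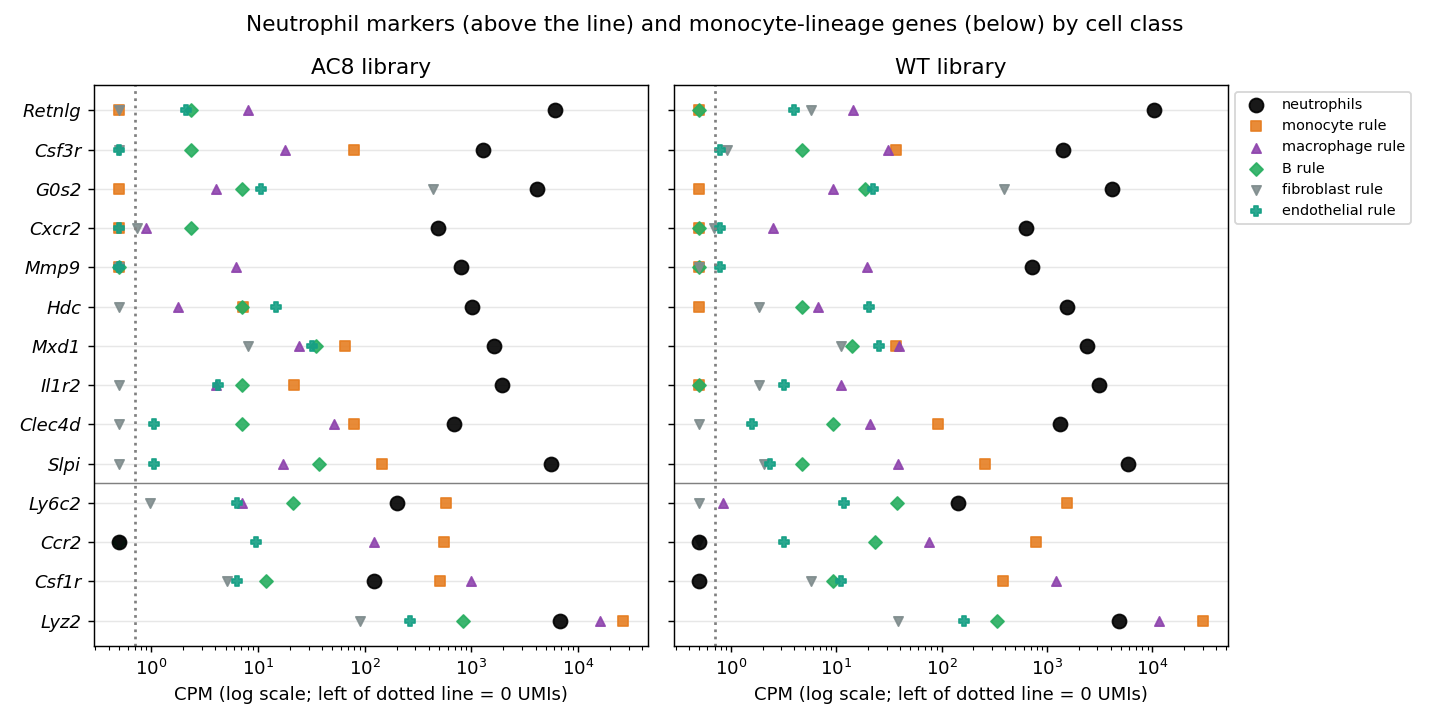
CPM on a log axis of 10 neutrophil markers and 4 genes of the monocyte lineage in the neutrophils (black circles) and in 5 other cell classes, AC8 library left and WT library right. Points left of the dotted line had 0 UMIs. The black circles lie rightmost for all 10 markers in both libraries, while Ccr2 is at 0 in the neutrophils of both.

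A pair of AC8 cells stood apart by genes of another lineage. The AC8 neutrophil with the most UMIs, 3233, and with 1473 genes, carried 23 UMIs of the monocyte list, 73 of Lyz2 and 1 of Retnlg, and it gave 13.1% of all AC8 neutrophil UMIs. A second AC8 cell, with 1696 UMIs, carried 34 UMIs of endothelial genes, 18 of them Fabp4, a fatty acid-binding protein of capillary endothelium, and gave 6.86% of the UMIs. No other AC8 neutrophil had a UMI of the endothelial list, and 6 WT cells held its 9 UMIs there. The rule had set Pecam1 and Cdh5 of that list to 0. No doublet caller was run, and whether either droplet held more than 1 cell was not tested. Results that change without them are given both ways.

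Neutrophils took 1.48% of leukocytes in AC8 (25 of 1693, 0.958 to 2.17) and 3.39% in WT (44 of 1297, 2.48 to 4.53), a difference of -1.92 percentage points (-3.16 to -0.765). The sort kept no CD45+CD31+ cells, so this is a share of leukocytes sorted as CD31-. Leukocytes were the neutrophils and all cells in which leukocyte genes outweighed mesenchymal and endothelial genes. Of all cells within the mitochondrial limit, a share that the mixing of the sorted fractions also sets, they were 0.523% (0.339 to 0.771) in AC8 and 0.766% (0.557 to 1.03) in WT, a difference of -0.24 points (-0.56 to 0.08), an interval that includes 0. That interval excluded 0 where Ly6c2, Ccr2 and Csf1r had to be at 0 (-0.62 to -0.0077) and where S100a8 and S100a9 had to reach 10% of UMIs (-0.64 to -0.13). The 10% setting was chosen after seeing the data and cuts on the genes that chose the cells. It kept 10 of 25 AC8 and 34 of 44 WT cells, so its interval describes that cut and supports nothing. The difference in the share of leukocytes varied with depth. Among leukocytes with at least 1000 UMIs the neutrophils were 6 of 1360 (0.441%) in AC8 and 4 of 886 (0.451%) in WT, a difference of -0.01 points (-0.76 to 0.60). Among those under 1000 UMIs they were 19 of 333 (5.71%) in AC8 and 40 of 411 (9.73%) in WT, a difference of -4.03 points (-8.00 to 0.05). Of all cells with at least 1000 UMIs they were 0.161% in AC8 and 0.107% in WT, a difference of 0.05 points (-0.14 to 0.26) in the other direction, and of those under 1000 UMIs 19 of 1056 in AC8 and 40 of 2022 in WT, a difference of -0.18 points (-1.18 to 0.96). Leukocytes under 1000 UMIs were themselves 19.7% of AC8 and 31.7% of WT leukocytes. The part of depth in the pooled difference was not tested, and neither depth range alone gave an interval that excludes 0 for either share.

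The 69 cells differed widely in how much of their RNA was S100a8 and S100a9. The pair took a median of 6.89% of a cell's UMIs in AC8 (1.73 to 32.3) and 18.6% in WT (2.33 to 41.3), which was 51 UMIs (20 to 646) in AC8 and 125 (16 to 1035) in WT. The ranges of the libraries overlapped almost in full, but 15 of 25 AC8 cells and 10 of 44 WT cells lay under 10%. S100a8 stood at 32583 CPM in AC8 and 85578 CPM in WT, and S100a9 at 65935 CPM in AC8 and 106490 CPM in WT. As the minimum for membership was a number of these UMIs, no ratio of them is read as a result.

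Cells rich in S100a8 and S100a9 carried more of some other neutrophil transcripts and less of others. The cut at 10% of UMIs was chosen after seeing the data and uses S100a8 and S100a9, which chose the cells. What follows describes 10 AC8 and 34 WT cells at or above it and 15 AC8 and 10 WT cells below, and supports nothing. With both genes taken out of the totals, Retnlg stood at 15748 CPM in AC8 and 15500 CPM in WT among cells with 10% or more, and at 1498 CPM in AC8 and 3456 CPM in WT among the rest. Lcn2, lipocalin-2, an iron-siderophore-binding granule protein, was at 5451 CPM in AC8 and 5653 CPM in WT against 285 CPM in AC8 and 494 CPM in WT. Wfdc21, a small secreted protein with a WAP domain, had 3150 CPM in AC8 and 2462 CPM in WT against 214 CPM in AC8 and 329 CPM in WT. These values leaned on the 3 cells with Ngp, Ltf and Camp described below, which held 55.4% of the AC8 and 12.4% of the WT Retnlg UMIs of the S100-rich cells. Without them Retnlg was at 8408 CPM in AC8 and 15151 CPM in WT among S100-rich cells, Lcn2 at 3624 CPM in AC8 and 2745 CPM in WT, and Wfdc21 at 1740 CPM in AC8 and 2034 CPM in WT, each still above the rest of its library. Of the 10 markers used to check the label, 9 in AC8 and 5 in WT were higher in the S100-rich cells. Csf3r ran the opposite way in both libraries, with 1090 CPM in AC8 and 1504 CPM in WT among S100-rich cells, and 1641 CPM in AC8 and 2633 CPM in WT among the rest. These levels rested on 9 and 23 UMIs in AC8 and 33 and 16 in WT, and their intervals overlapped within each library. Il1r2 differed between the libraries, with 3634 CPM in AC8 and 2918 CPM in WT among S100-rich cells, and 1284 CPM in AC8 and 7077 CPM in WT among the rest. Other genes ran the opposite way: Il1b, interleukin-1 beta, had 5936 CPM in AC8 and 7249 CPM in WT among S100-rich cells, and 11058 CPM in AC8 and 9546 CPM in WT among the rest, and Cebpb, a transcription factor of myeloid cells, had 8237 CPM in AC8 and 8935 CPM in WT against 11700 CPM in AC8 and 14319 CPM in WT.

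**Figure D2:**
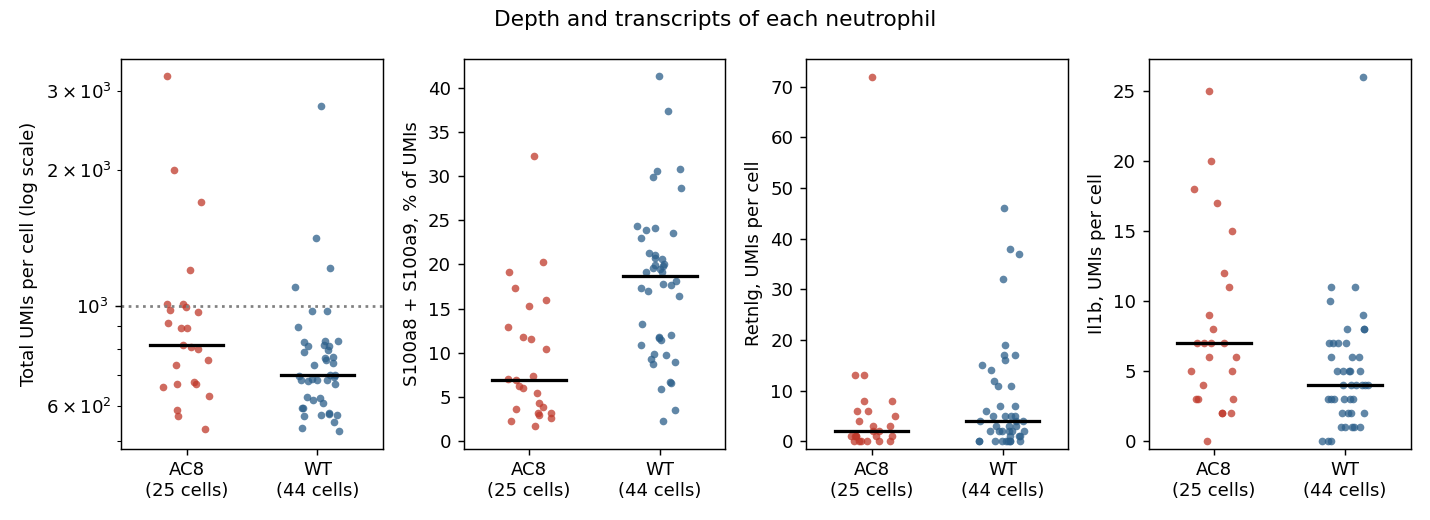
Each point is a neutrophil, AC8 (25 cells) left of WT (44 cells) in each panel, and black lines are medians. The panels show total UMIs (log axis, dotted line at 1000), the percent of UMIs from S100a8 and S100a9, and UMIs of Retnlg and Il1b. The median S100 share is 6.89% in AC8 and 18.6% in WT, and the Il1b medians are 7 UMIs in AC8 and 4 in WT, with ranges that overlap in every panel.

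Il1b was among the most abundant transcripts, with UMIs in 24 of 25 AC8 and 41 of 44 WT neutrophils. It stood at 8257 CPM (7163 to 9471) in AC8 and 6259 CPM (5454 to 7150) in WT, a ratio of 1.32 (1.08 to 1.60), while the monocyte class came next with 1817 CPM in AC8 and 1301 CPM in WT. With S100a8, S100a9 and mitochondrial genes out of the totals the ratio was 1.18, for which no interval was computed. Among the cells with 10% or more of S100 UMIs the ratio was 0.855, the opposite direction. Per cell the median was 7 UMIs (0 to 25) in AC8 and 4 (0 to 26) in WT.

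Ngp, Ltf and Camp, transcripts of specific granule proteins that are made in the bone marrow before release, were found together in 3 cells and in no other neutrophil. Ngp encodes neutrophilic granule protein, Ltf lactoferrin, which binds iron, and Camp the antimicrobial cathelicidin. The AC8 cell, with 2003 UMIs, had 43 UMIs of Ngp, 5 of Ltf and 13 of Camp. Of the WT cells, the deeper, with 2774 UMIs, had 197 of Ngp, 41 of Ltf and 197 of Camp, and the other, with 898 UMIs, had 34, 10 and 5. All 3 had 0 UMIs of Il1b, which was at 0 in 0 of the other 24 AC8 and 1 of the other 42 WT neutrophils. They also carried many UMIs of S100a8 and S100a9, 646 in the AC8 cell and 1035 and 371 in the WT cells.

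Lcn2 was less restricted, with 20 UMIs in the AC8 cell and 67 and 3 in the WT cells, and with UMIs in 9 of the other 24 AC8 and 23 of the other 42 WT neutrophils, at most 9 per AC8 and 8 per WT cell. Mpo, Elane, Prtn3, Ctsg and Ms4a3, which mark the earlier promyelocytes, were at 0 in every neutrophil, and so was the cell cycle gene Mki67. In the other 5 classes Ngp, Ltf and Camp had at most 2.36, 1.06 and 2.08 CPM.

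The starts of these 3 genes lie within 1.17 megabases of chromosome 9. Their upstream bases are shown because their transcripts appeared together. The sequences are RefSeq's, on GRCm38.p6, read 5′ to 3′ on the strand of the gene from 250 bases before the RefSeq start, with bases inside the longer GENCODE vM21 gene left out. Capitals mark TTGCNNAA or its reverse complement TTNNGCAA, a consensus of C/EBP factors, which drive granulocyte genes.
Ngp chr9:110419558-110419746 (plus strand): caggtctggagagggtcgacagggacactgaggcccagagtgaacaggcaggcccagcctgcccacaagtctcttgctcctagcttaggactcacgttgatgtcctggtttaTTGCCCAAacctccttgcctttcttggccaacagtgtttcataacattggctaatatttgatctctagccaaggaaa
Ltf chr9:111019042-111019270 (plus strand): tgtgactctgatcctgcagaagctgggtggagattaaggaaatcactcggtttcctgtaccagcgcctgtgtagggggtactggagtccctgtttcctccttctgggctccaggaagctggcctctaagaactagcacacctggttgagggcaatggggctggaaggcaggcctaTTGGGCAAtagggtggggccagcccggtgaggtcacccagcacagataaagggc
Camp chr9:109849618-109849706 (minus strand): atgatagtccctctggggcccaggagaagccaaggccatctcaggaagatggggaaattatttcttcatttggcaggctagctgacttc
Over the whole 250 bases the motif was found 2 times for Ngp, 1 time for Ltf and 0 times for Camp. It was present in 9.56% of the 32851 promoter windows of the same length in the table. A match describes letters and not binding, and no match says only that these letters are not in this window.

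**Figure D3:**
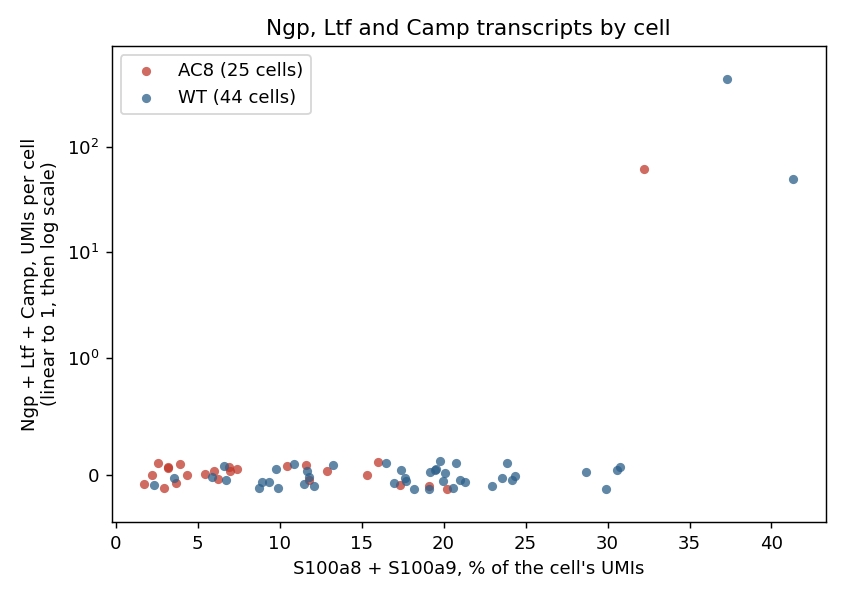
UMIs of Ngp, Ltf and Camp together (linear to 1, then a log axis) against the percent of UMIs from S100a8 and S100a9 in each neutrophil, AC8 red and WT blue. The points at 0 are spread slightly to be seen. The 3 cells with UMIs of these genes, 1 in AC8 and 2 in WT, lie at the upper right.

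Between AC8 and WT neutrophils 446 genes had at least 20 summed UMIs, of which 54.5% were higher and 45.5% lower in AC8. At least 2-fold higher in AC8, as a log2 ratio with a pseudocount of 100 CPM, were 30 of them (6.73%), and at least 2-fold lower were 22 (4.93%), with a median of 0.06 over all 446. Leaving S100a8, S100a9 and mitochondrial genes out of the totals turned these counts to 17 higher and 33 lower, so the balance of higher against lower genes depended on the scaling. Without the AC8 cells with monocyte and endothelial genes and the 3 cells with Ngp the counts were 18 higher and 20 lower. The genes named next are the 8 highest and 8 lowest ratios by a fixed rule, picked from these same counts, so their intervals are no separate support.

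Klf2, a transcription factor that restrains inflammatory activation of myeloid cells (chromosome 8, 72319033 to 72321656, plus strand), was at 2590 CPM (1995 to 3308) in AC8 and 692 CPM (444 to 1030) in WT neutrophils. The ratio was 3.74 (2.31 to 6.26), on 64 UMIs in 18 of 25 AC8 cells and 24 UMIs in 14 of 44 WT cells. It stayed at least 2-fold higher under all 17 alternatives that gave a value, including the omission of the cells that stood apart (3.42). No other class was 2-fold apart. Klf2 had 2072 CPM in AC8 and 3095 CPM in WT macrophages, 2291 CPM in AC8 and 2043 CPM in WT B cells, and 452 CPM in AC8 and 605 CPM in WT monocytes. Endothelial cells had the most, 4621 CPM in AC8 and 4072 CPM in WT, and fibroblasts had 2372 CPM in AC8 and 2433 CPM in WT. It is also an early response gene of the dissociation stress list described below.

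The other 7 highest were Cox5b, a subunit of cytochrome c oxidase (16 UMIs in AC8, 4 in WT), Ly6e, a lymphocyte surface antigen (28 in AC8, 12 in WT), the autophagy receptor Sqstm1 (19 in AC8, 8 in WT), the dehydrogenase Dhrs7 (20 in AC8, 9 in WT), the cell cycle inhibitor Cdkn1a (17 in AC8, 8 in WT), the interferon-induced Ifi27l2a (37 in AC8, 20 in WT) and the chemerin-binding receptor Ccrl2 (30 in AC8, 16 in WT). Their ratios lay between 2.60 and 5.61, that of Cox5b, whose interval was wide (1.81 to 23.1). Without the 5 cells that stood apart Cdkn1a was at 1.53, Ly6e at 2.18 and Ifi27l2a at 2.18. Ccrl2 had UMIs in 10 AC8 and 10 WT cells, and 1 AC8 cell held 40.0% of the AC8 UMIs. Tmsb10, an actin-binding thymosin, had a larger ratio, 6.08, but stood under 20% of its highest class and was left out of these 8. It had 26 UMIs in AC8 and 6 in WT, 76.9% of the AC8 ones in the cell with monocyte genes.

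Ifitm1, an interferon-inducible membrane protein that neutrophils express at high levels (chromosome 7, 140967221 to 140969825, plus strand), had the most WT cells among the 8 lowest ratios. It stood at 1295 CPM (886 to 1828) in AC8 and 4067 CPM (3423 to 4796) in WT neutrophils, a ratio of 0.318 (0.210 to 0.470), on 32 UMIs in 13 AC8 cells and 141 UMIs in 31 WT cells. It was at least 2-fold lower under 16 of 17 alternatives, and among cells of at least 1000 UMIs the ratio was 0.823. Among S100-rich cells it was at 1454 CPM in AC8 and 5471 CPM in WT, and among the rest at 1427 CPM in AC8 and 3456 CPM in WT. The highest level in any other class was 26.8 CPM in AC8 and 147 CPM in WT. Its neighbour in the family, Ifitm2, had 2955 CPM in AC8 and 2913 CPM in WT, while Ifitm3 had 2145 CPM in AC8 and 1096 CPM in WT, a ratio of 1.96 (1.27 to 3.05), with 32.1% of its AC8 UMIs in 1 cell and a ratio of 0.907 among cells under 1000 UMIs. Family members of like sequence can share reads, so the split between them is uncertain.

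Stfa2l1, a stefin-family protease inhibitor whose near-identical copies may share its reads, had 4 UMIs in 3 AC8 cells and 26 UMIs in 14 WT cells, a ratio of 0.216 (0.0548 to 0.622). Thbs1, thrombospondin 1, had 7 UMIs in AC8 and 34 in WT (ratio 0.289, 0.108 to 0.662) and Snap23, a membrane fusion protein of granule release, 7 in AC8 and 32 in WT (0.307, 0.114 to 0.708). Camp (0.0903), Ltf (0.138), Ngp (0.261) and Chil3 (0.156) completed the 8 lowest ratios and rested on the granule cells: 97.5% of the Camp, 80.4% of the Ltf, 85.3% of the Ngp and 100% of the Chil3 UMIs in WT lay in 1 cell. Without the cells that held Ngp, Ltf and Camp, Chil3 turned to a log2 ratio of 0.91. This rested on 2 UMIs in AC8, both in the cell with monocyte genes, and 0 in WT, too few to read a direction.

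**Figure D4:**
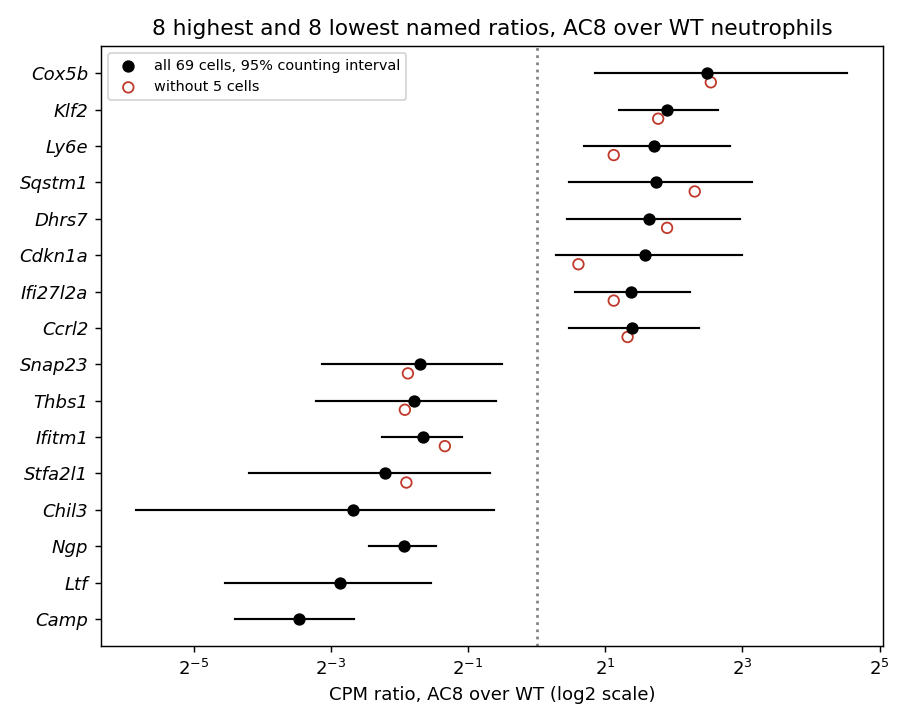
CPM ratios of AC8 over WT neutrophils on a log2 axis for the 8 highest and 8 lowest named genes. Black points and lines are ratios over all 69 cells with 95% counting intervals, and red circles are ratios without the 5 cells that stood apart (Ngp, Ltf, Camp and Chil3 have none). Klf2 and Ifitm1 have the narrowest intervals among the genes that do not rest on those cells.

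Gene lists were described over their members with at least 10 summed UMIs, beside all 871 such genes, of which 56% were higher and 44% lower in AC8, 8.38% higher and 4.59% lower by at least 2-fold, with a median log2 ratio of 0.09. Of 25 further neutrophil markers, 9 were higher and 16 lower in AC8, with a median of -0.37. None was 2-fold higher, and Stfa2l1, Ifitm1 and Wfdc17, a secreted WAP-domain protein (1700 CPM in AC8, 3634 in WT), were 2-fold lower. Lcn2 (1983 CPM in AC8, 3663 in WT), Pglyrp1, a peptidoglycan-binding granule protein (1862 CPM in AC8, 3029 in WT), Clec4d, a receptor for mycobacterial lipids (688 CPM in AC8, 1327 in WT), and Srgn, the granule proteoglycan serglycin (8662 CPM in AC8, 11941 in WT), had intervals of the ratio below 1. The Lcn2 ratio, 0.541 over all cells, was 0.695 without the cells that held Ngp, Ltf and Camp. It was 0.796 without all 5 cells that stood apart, and no interval was computed for these 2 values. Mmp9, gelatinase B (810 CPM in AC8, 721 in WT), Clec4e (1821 CPM in AC8, 1500 in WT) and Msrb1, a methionine sulfoxide reductase (4452 in AC8, 3692 in WT), had intervals that included 1.

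Chemoattractant receptors were split, 3 of 7 higher and a median of -0.03. Besides Cxcr2 and Ccrl2 they included C5ar1, the complement C5a receptor (1295 CPM in AC8, 923 in WT, ratio 1.40, 0.832 to 2.37), Ccr1 (486 CPM in AC8, 779 in WT) and Cxcr4, the receptor for the marrow-retention chemokine CXCL12 (607 CPM in AC8, 375 in WT). Adhesion genes were 5 higher and 5 lower with a median of -0.04, among them Cd44, the hyaluronan receptor (486 CPM in AC8, 836 in WT), with an interval of the ratio that included 1. Actin and motility genes, 16 of 27 higher, had a median of 0.10. Arpc1b, an Arp2/3 subunit, stood at 2307 CPM in AC8 and 1240 CPM in WT (1.86, 1.23 to 2.83). Of 9 Fc and inhibitory receptor genes 6 were lower, with Lilr4b at 729 CPM in AC8 and 1817 CPM in WT (0.401, 0.223 to 0.686), whose close copy Lilrb4a may share its reads. Fcer1g, the shared Fc receptor gamma chain, was at 4371 CPM in AC8 and 2913 CPM in WT (interval of the ratio 1.13 to 1.99).

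Inflammatory transcripts pointed both ways. Among 12 NF-kB targets, the theme of the series title, 7 were higher and 5 lower in AC8, with a median of 0.30. Plaur, the urokinase receptor, stood at 2469 CPM in AC8 and 1356 CPM in WT (1.82, 1.22 to 2.72), and Nfkbia, the inhibitor of NF-kB, at 1943 CPM in AC8 and 1240 CPM in WT (1.57, 1.02 to 2.42), where the ratio was 0.968 among cells under 1000 UMIs. Nfkbiz, an atypical member of that inhibitor family, was at 243 CPM in AC8 and 750 CPM in WT (0.324, 0.109 to 0.805), a direction that turned among cells of at least 1000 UMIs. Cxcl2, a neutrophil-attracting chemokine, had 5221 CPM in AC8 and 6346 CPM in WT (0.823, 0.657 to 1.03). Of 6 chemokines and cytokines 5 were higher, with a median of 0.74, but Ccl4 (931 CPM in AC8, 462 in WT) had 87.0% of its AC8 UMIs in 1 cell, and Ccl6 (5221 CPM in AC8, 4153 in WT) and Osm, oncostatin M (850 CPM in AC8, 490 in WT), had intervals that included 1. Il1rn, the interleukin-1 receptor antagonist, had 25 UMIs in AC8 and 18 in WT, 52.0% of the AC8 ones in 1 cell. Among cells with 10% or more of S100 UMIs Il1rn (ratio 0.231) and Ccl4 (0.640) ran the opposite way. Nfkbia (0.965) and, among the markers above, Lcn2 (1.01) were near 1 there. Tnf, Il6, Il10, Il1a, Il18, Cxcl10 and Ccl5 were at 0 in both libraries.

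Interferon response genes were 3 higher and 6 lower of 9 measured, with a median of -0.35. Ifi27l2a (1498 CPM in AC8, 577 in WT) and Ifitm3 had intervals of the ratio above 1, Slfn4, a schlafen protein of myeloid cells, had 4 UMIs in AC8 and 20 in WT (0.281, 0.0698 to 0.838), and Isg15 had 567 CPM in AC8 and 808 CPM in WT with an interval that included 1. Of MHC class I genes 2 of 6 were higher, with a median of -0.31. H2-D1 had 2348 CPM in AC8 and 3086 CPM in WT, an interval of the ratio that included 1, and H2-T23 had 3 UMIs in AC8 and 16 in WT (0.263, 0.0491 to 0.919). Psmb8, an immunoproteasome subunit, had 11 UMIs in AC8 and 4 in WT (3.86, 1.14 to 16.6). These counts are small, and only 9 of the 39 interferon genes in the matrix had at least 10 UMIs.

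Of 25 genes that dissociation of tissue is known to induce, 22 were higher in AC8 and 5 of them 2-fold, with a median of 0.49. Besides Klf2 these were the AP-1 subunit Jun (890 CPM in AC8, 317 in WT), Hsp90ab1 (850 in AC8, 346 in WT), Dusp1, a MAP kinase phosphatase (4452 in AC8, 2134 in WT, ratio 2.09, 1.54 to 2.84), and Zfp36, an mRNA-destabilising protein (1943 in AC8, 808 in WT, ratio 2.41, 1.48 to 3.98). Of 17 alternatives, Hsp90ab1 stayed at least 2-fold higher under 5, Dusp1 under 6, Jun under 10 and Zfp36 under 14. The lowest log2 ratio of Hsp90ab1 was 0.025. Junb had 5667 CPM in AC8 and 3548 CPM in WT (1.60, 1.24 to 2.05) and Fos 1862 CPM in AC8 and 1125 CPM in WT (1.66, 1.06 to 2.60). Among cells with 10% or more of S100 UMIs, the log2 ratios of Dusp1, Jun and Zfp36 were -0.84, -1.08 and -0.89, opposite to those over all cells. Within the cells under 10% Dusp1 stood at 6992 CPM in AC8 and 1975 CPM in WT. Jun was also lower in AC8 among cells under 1000 UMIs, at -0.94.

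The same stress list was not higher in AC8 in every class of the same libraries. It had 7 of 25 genes higher and a median of -0.28 in macrophages, and 5 of 25 and -0.17 in fibroblasts. In B cells it had 16 of 25 and 0.18, in endothelial cells 18 of 25 and 0.13, and in monocytes 14 of 24 and 0.08. The difference between these classes was not tested. Transcription factors, which share Klf2, Klf6 and Junb with it, had 7 of 10 higher and a median of 0.38. They included Cebpd (971 CPM in AC8, 490 in WT, 1.98, 1.02 to 3.93), Cebpb (9390 in AC8, 8163 in WT, 1.15, 0.963 to 1.37) and Spi1, the myeloid master factor PU.1 (729 in AC8, 865 in WT). Among S100-rich cells Klf2 had 1696 CPM (927 to 2846) on 14 UMIs in AC8 and 684 CPM (383 to 1128) on 15 in WT. Among the rest it had 3567 CPM (2648 to 4703) on 50 UMIs in AC8 and 1481 CPM (677 to 2812) on 9 in WT. The intervals of the libraries overlapped in each range, and the cut uses the genes that chose the cells, so these values only describe. The part of dissociation or of the mix of S100-rich and S100-poor cells in the Klf2 ratio was not tested.

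**Figure D5:**
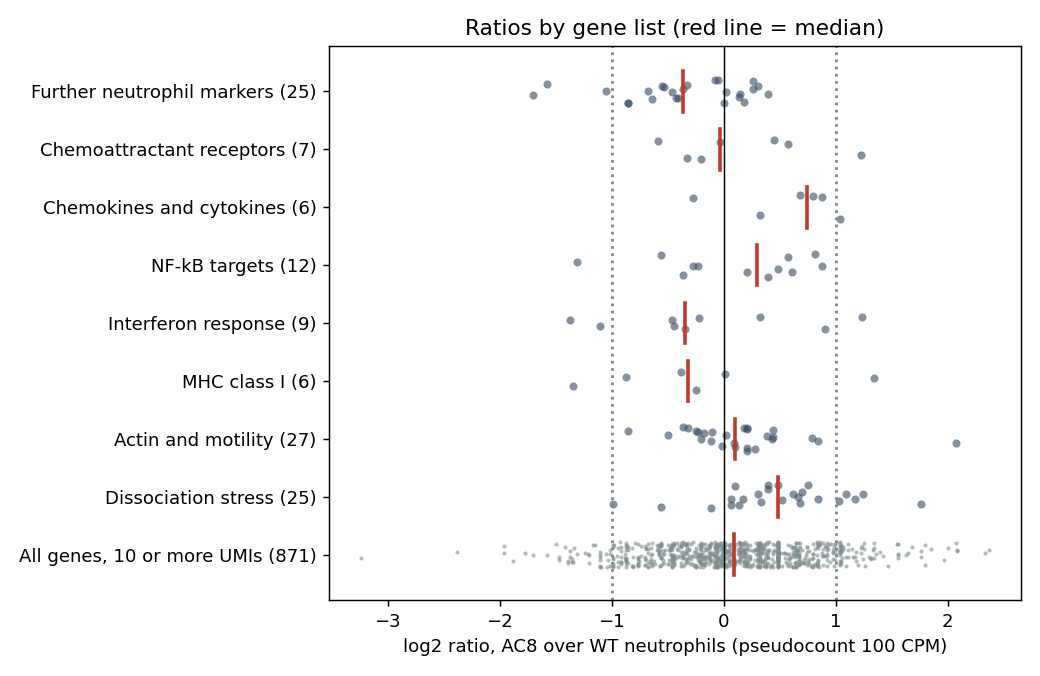
Log2 ratios of AC8 over WT neutrophils (pseudocount 100 CPM) for genes with at least 10 summed UMIs in 8 lists and for all 871 genes. Red lines are medians and dotted lines mark 2-fold. The medians run from -0.37 for further neutrophil markers to 0.74 for chemokines and cytokines, beside 0.09 for all genes.

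Genes of cyclic AMP signalling, the pathway of the transgene, were sparse. Adcy8, which encodes AC8, was at 0 in the neutrophils of both libraries, as were Adcy7 and Adcy3. Of 7 measured genes 4 were higher in AC8, with a median of 0.49, and the intervals of the ratio of both genes named here included 1: Pde4b, a phosphodiesterase that degrades cyclic AMP, had 11 UMIs in AC8 and 20 in WT (0.772, 0.334 to 1.69) and Gnas, the stimulatory G protein subunit, 9 in AC8 and 5 in WT (2.53, 0.760 to 9.59). The iron-storage genes Fth1 (21088 CPM in AC8, 16671 in WT, ratio 1.26, 1.12 to 1.43) and Ftl1 (13681 in AC8, 6490 in WT, ratio 2.11, 1.78 to 2.51) were among the 15 most abundant transcripts. Ftl1, the ferritin light chain, had 24.0% of its AC8 UMIs in 1 cell. It was also higher in the AC8 library in the other classes, at 14165 CPM in AC8 and 5700 CPM in WT monocytes and at 16266 CPM in AC8 and 11368 CPM in WT macrophages.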

How the data were processed

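Single cells of AC8 and WT mouse hearts were measured in 1 pooled droplet library per genotype. Each deposited matrix gives counts of UMIs by gene and cell as whole numbers. Per the labels' protocols the authors produced them with Cell Ranger, whose release was not given in the sources used here. The submitters' processing notes name mm10 as the build. Deposited cells with a total under 500 UMIs numbered 0.

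Counts were summed over the neutrophils of a library, divided by all their UMIs and scaled to 1000000 (CPM). Ratios are AC8 over WT. Log2 ratios used a pseudocount of 100 CPM. Comparisons across genes needed 20 summed UMIs, and list members 10. Exact 95% intervals are Clopper-Pearson for shares and Poisson for CPM, with a conditional binomial form for ratios, and those of differences join the limits of both shares. UMIs are taken as independent. No test could be made with a single library per genotype.

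The neutrophils, gene lists and comparison classes were chosen with earlier results of these data known. Named genes were the markers, list members with at least 10 UMIs, the 8 highest and 8 lowest ratios among genes at 20% or more of their level in the highest class (without mitochondrial, ribosomal, hemoglobin, sex and antigen receptor genes), the 15 most abundant and the 15 most selective. Cells were thinned without replacement to 500 UMIs for detection shares. No doublet caller was run, and the limits on genes of other lineages stood in its place. The barcode files hold only cell numbers, so barcodes shared between the libraries could not be counted. Of 22441 gene symbols, 22039 (98.2%) matched GENCODE vM21 on GRCm38, the assembly called mm10, from which positions come. Upstream sequences are RefSeq's. Some genes of the lists are not reported here. The calculations were tested on simulated data and used Python 3.11.15, numpy 2.4.6, scipy 1.17.1 and pandas 2.3.3.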

Additional observations from a re-analysis of the deposited data

How the results depend on the processing

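No paired analysis was possible because each genotype has 1 library, and no replicate could be left out. The neutrophil share of leukocytes differed by -0.0103 points with at least 1000 UMIs per cell and by -4.03 under 1000, and the share of all cells by 0.0536 with at least 1000, where it turned. Of genes at least 2-fold apart, 30 higher in AC8 became 19 with S100 genes at 2% of UMIs or more, 14 at 10%, 18 without both kinds of cell that stood apart, 4 with a pseudocount of 500 CPM, 73 and 10 with at least 10 and 50 UMIs per gene, and 17 with totals that leave out S100a8, S100a9 and mitochondrial genes. The 22 lower became 11 with at least 1000 UMIs per cell, 5 with the pseudocount of 500 CPM, 40 and 7 with at least 10 and 50 UMIs per gene, and 14 after thinning. Log2 ratios of at least 2-fold that turned were Nfkbiz (2.31, at least 1000 UMIs), Jun (-0.94, under 1000, and -1.08, S100 at 10%), Dusp1 (-0.84) and Zfp36 (-0.89) at that S100 share, Chil3 (0.91, without the Ngp cells) and Pgam1 (-0.0849, thinned). The Chil3 value rested on 2 UMIs in AC8 and 0 in WT. Of 30 smaller ratios with an interval that excludes 1, 11 turned: Il1b (-0.22), Il1rn (-1.41), Ccl4 (-0.51), Il1r2 (0.37), Lcn2 (0.0101), Retnlg (0.0849), Nfkbia (-0.0453) and S100a9 (0.0363) with S100 at 10%, Retnlg (0.0185) and Jund (-0.55) with at least 1000 UMIs, Ifitm3 (-0.13) and Nfkbia (-0.0444) under 1000, and Ifitm3 (-0.10) and Mxd1 (0.0279) with strict limits on other lineages. In both Retnlg settings the AC8 cell with Ngp held 72 of the AC8 Retnlg UMIs. The AC8 total was 87 with at least 1000 UMIs per cell and 130 with S100 at 10%. Without the cells that held Ngp, Ltf and Camp the log2 ratio of Retnlg was -1.54. The cause of the turns was not tested. The settings with cells that stood apart left out and with S100 at 10% were chosen after seeing the data. The other 62 summary values kept their direction and size by the limits set, including 10 of 10 markers above every other class under each choice of cells. Of the values of single genes and lists, 3367 kept to the limits set, 201 did not, and 7 of at least 2-fold turned. For a single gene the limit was its counting interval. A list median, or the median of all genes, only had to keep its sign. At this depth a gene under 3 UMIs per library could not be told from 0.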
